A study of Homo sapiens with 15 samples.

Results

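The effect of the cancer stem cell (CSC) fraction was compared between the lines SUM149PT and HCC1937, using the 12 of 15 libraries that come from sorted fractions and the 12295 of 33158 genes of the deposited table whose mean over those 12 reaches 1 FPKM. Triple negative breast cancer cells were sorted into CSCs, defined as CD44+/CD24-/low, and non-CSCs, and each fraction of each line was sequenced in 3 libraries. SUM149PT, spelled SUM149 in the labels, and HCC1937 are established lines. The 3 other libraries are of SUM159PT, which was not split into fractions. A log2 fold change here is CSC minus non-CSC on log2(FPKM + 0.1), and the interaction is this change in SUM149PT minus the same change in HCC1937, so a negative interaction marks a gene whose level in CSCs relative to non-CSCs is lower in SUM149PT. Paired values in brackets are log2 fold changes in SUM149PT and then in HCC1937.

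CD44 is a receptor for hyaluronan and CD24 is a glycoprotein of the cell surface; together they define a widely used sort for cells that can found breast tumours. Chemokines such as CXCL1 and CXCL6 act on the receptor CXCR2 and attract neutrophils, and CSF3 drives the formation of neutrophils. Transcription of the genes for cholesterol and fatty acid synthesis is raised by SREBP proteins when sterols are scarce.

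CD24 moved in the direction of the labels in both lines, more strongly in SUM149PT. It was at 7.97, 7.64 and 7.61 FPKM in the SUM149PT CSC libraries against 147, 137 and 134 in non-CSCs, and at 23.6, 22.5 and 23.9 against 167, 141 and 142 in HCC1937. Each line's fractions lie wholly apart, and the interaction of CD24 was -1.48 (adjusted p 4.02e-07). CD44 differed far less: it rose by 0.39 on the log2 scale in SUM149PT CSCs, and its change of 0.12 in HCC1937 was not called (adjusted p 0.159). EPCAM fell in the CSCs of both lines (log2 fold change -4.44 in SUM149PT and -2.23 in HCC1937), as did CDH1 (-4.52 and -2.29) and the basal keratin KRT5 (-4.62 and -1.33), each with the larger change in SUM149PT. KRT17, also basal, did the same (-3.02 and -1.22). KRT14, a further basal keratin, had changes of -0.59 and -0.64, at very different levels. Its means were 0.822 FPKM in SUM149PT CSCs and 1.28 in non-CSCs, where the fractions overlapped, and 109 and 170 in HCC1937. PGR was near 0 in all libraries. ESR1 did not reach the expression minimum, and its highest group mean was 1.66 FPKM, in HCC1937 non-CSCs. ERBB2 had means of 3.55 FPKM in SUM149PT CSCs and 6.53 in non-CSCs, and of 10.1 and 17.5 in HCC1937. Its changes were -0.86 and -0.78.

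With the adjusted p limited to 0.05, the interaction was called for 8313 of 12295 genes (67.6%), of which 3972 were positive (32.3%) and 4341 negative (35.3%). The replicates carry no statement of separate cultures, so every p measures the spread between libraries. In 7221 of the 8313 genes (86.9%) the larger change was in SUM149PT. The CSC effect itself, with the same limit and a log2 fold change of 1 or more in size, gave 1414 genes higher (11.5%) and 2241 lower (18.2%) in SUM149PT CSCs, and 307 higher (2.5%) and 639 lower (5.2%) in HCC1937 CSCs. The balance between higher and lower genes depends on the scaling: quantile scaling gave 1929 higher and 1835 lower in SUM149PT, and TPM scaling 452 and 562 in HCC1937. Across all genes tested the standard deviation of the log2 fold change was 1.33 in SUM149PT and 0.64 in HCC1937, and the medians were -0.04 and -0.02. The changes of the lines correlated at 0.378 over the 12295 genes, which share libraries within each line. CSC and non-CSC libraries correlated at 0.782 to 0.801 in SUM149PT and at 0.931 to 0.944 in HCC1937, against 0.967 to 0.979 within any group. How cleanly each fraction was sorted was not tested; among genes of at least 100 FPKM in non-CSCs and above 0 in all 12 libraries, the strongest fall was -5.20 over 437 genes in SUM149PT and -4.26 over 491 in HCC1937.

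**Figure D1:**
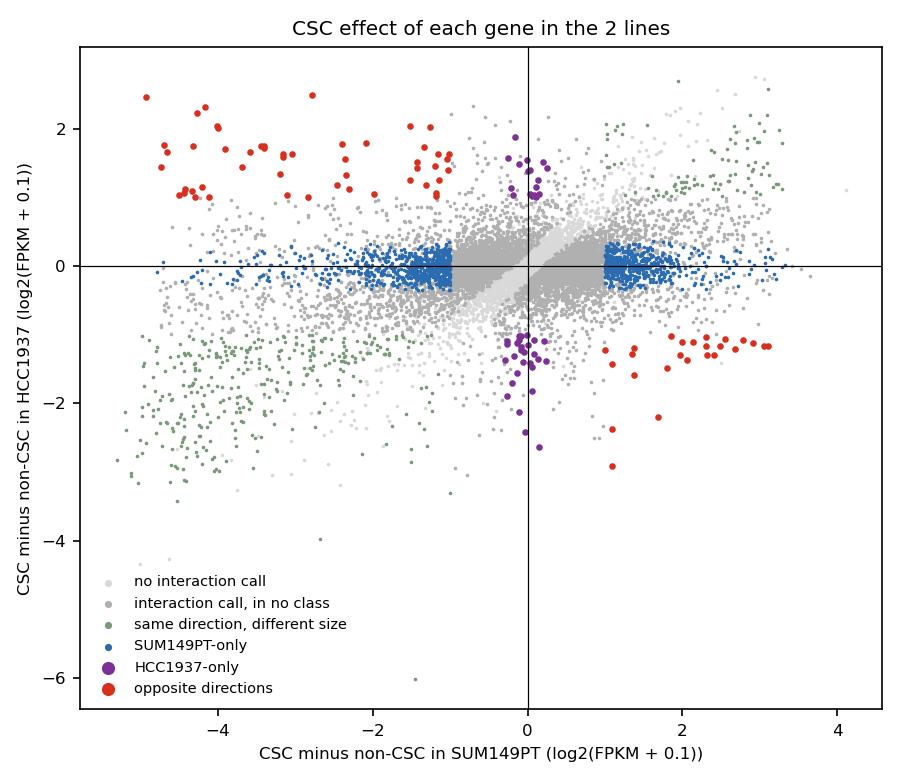
Log2 fold change of CSC against non-CSC in SUM149PT and in HCC1937 for the 11897 genes above 0 in all 12 libraries, coloured by class. Genes along the horizontal axis respond in SUM149PT alone.

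Genes were put in classes by their response in each line. Opposite genes pass both limits in both lines with opposite signs: 26 were higher in SUM149PT CSCs and lower in HCC1937 CSCs (0.211%), and 51 the reverse (0.415%). A pseudocount of 1 left 7 and 19, and TPM scaling gave 29 and 77. Of the opposite genes named below or in the closing section, EPGN, HSPB8, IL33, INSIG1, NEURL3, OAS2, PLEKHG3, TRIM22 and TWIST1 left the class with a pseudocount of 1, and FBLN1 and TWIST1 with each other scaling. EPGN and HSPB8 left it with quantile scaling, and EPGN, HSPB8, INSIG1 and TWIST1 without some single library. A gene counts as responding in only 1 line where the 95% interval of its change in the other line lies wholly between -0.5 and 0.5; 573 genes were higher (4.66%) and 719 lower (5.85%) in SUM149PT CSCs only, and 17 higher (0.138%) and 33 lower (0.268%) in HCC1937 CSCs only. The balance within these classes also turned with the scaling, to 749 higher and 602 lower SUM149PT-only genes with quantile scaling and to 26 higher and 21 lower HCC1937-only genes with TPM. Below, the words rose and fell also describe changes smaller than the limit of 1, which did not pass. A further 450 genes changed in the same direction in both lines but by different amounts (3.66%), 415 of them more in SUM149PT. With at least 1 FPKM required in the higher fraction of both lines, 18 and 37 opposite genes, 519 and 673 SUM149PT-only genes and 16 and 25 HCC1937-only genes were left, in the same order.

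Among the opposite genes lower in SUM149PT CSCs and higher in HCC1937 CSCs were factors that act on neutrophils. CXCL6 was at 0.776, 0.406 and 0.861 FPKM in SUM149PT CSCs and 26.7, 18.8 and 23.8 in non-CSCs, and at 19.1, 20 and 17.4 against 2.68, 3.95 and 3.47 in HCC1937. The fractions were apart in both lines, in opposite orders, and the interaction was -7.40 (standard error 0.33, adjusted p 1.99e-08). CSF3 was at 0.767, 0.649 and 1.21 FPKM in SUM149PT CSCs, 14.9, 16.1 and 14.3 in non-CSCs, 31.5, 26.1 and 23.8 in HCC1937 CSCs and 5.82, 8.08 and 6.06 in non-CSCs, again without overlap in either line (interaction -6.02, standard error 0.28, adjusted p 2.62e-08). CXCL1 had log2 fold changes of -4.69 and 1.77 (interaction -6.46, adjusted p 1.74e-09). PPBP belongs to the same chemokine family and fell in SUM149PT (-4.47), but its mean in HCC1937 was at most 0.0193 FPKM, so a reversal could not be seen there. Over the list of 11 chemokines and colony stimulating factors, 10 interactions were negative and 1 positive, and 4 genes were opposite. The list was named for neutrophils but also holds CCL20, which counts among the negative interactions and among the genes lower in SUM149PT CSCs. Over all genes 35.3% of interactions were negative and 32.3% positive, and 0.415% of genes were opposite in this direction. The interaction of PPBP, at or near 0 in HCC1937, follows from its fall in SUM149PT alone. In HCC1937 CSCs 8 list members passed as higher, against 2.5% of all genes. In SUM149PT CSCs 6 passed as lower and 1 as higher, against 18.2% and 11.5% of all genes. The exception, CSF2, chosen after its values were seen, rose in SUM149PT CSCs (2.48 and 0.56). The median log2 fold change was -4.0 in SUM149PT and 1.36 in HCC1937, against -0.04 and -0.02 over all genes tested. The directions of this list held under every scaling tried. The summed level changed less than the median: it was 1971, 2014 and 1996.5 FPKM in SUM149PT CSCs, 2548, 2138 and 2315 in non-CSCs, 643, 538 and 517 in HCC1937 CSCs and 184, 213 and 191 in non-CSCs. In bulk RNA, fewer cells that make these factors and less RNA per cell cannot be told apart.

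**Figure D2:**
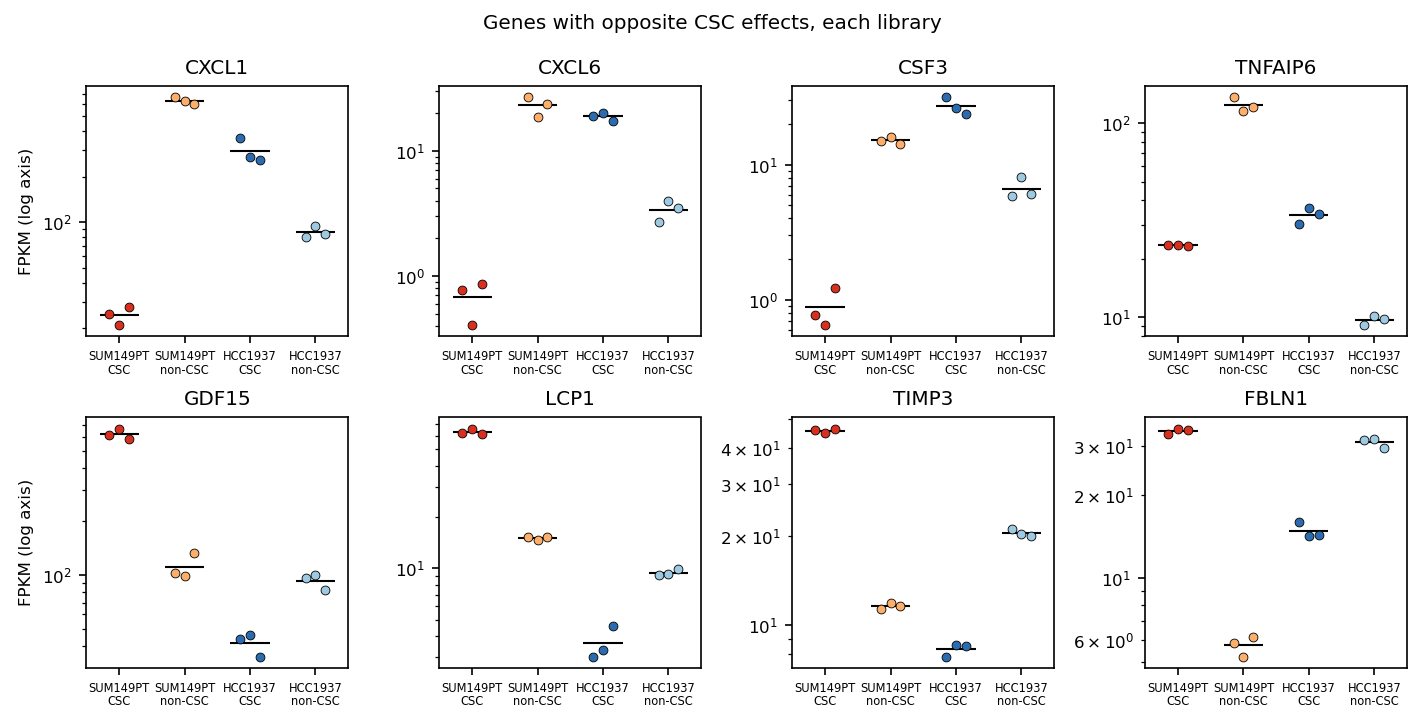
FPKM of the opposite genes CXCL1, CXCL6, CSF3, TNFAIP6, GDF15, LCP1, TIMP3 and FBLN1 in each of the 12 libraries. The order of the fractions is reversed between the lines for each of them, which their selection required.

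CXCL3 and CCL20 did not follow the reversal. CXCL3 was at 28.5, 33 and 30.4 FPKM in SUM149PT CSCs against 33.8, 33.1 and 35.8 in non-CSCs, and at 24.8, 20.6 and 23.2 against 7.33, 5.59 and 5.54 in HCC1937. The SUM149PT values lie close together and the HCC1937 fractions are apart, which placed the gene among those higher in HCC1937 CSCs only (1.88; interaction -2.05, adjusted p 1.09e-06). CCL20 showed the converse, with -4.32 in SUM149PT and -0.14 in HCC1937 (95% interval -0.46 to 0.17). The 120 bases upstream of the RefSeq transcript start of CXCL1 are shown, as the member with the highest level among the opposite genes described above, with 9 letters of an NF-kappaB site in capitals (GRCh38.p14, chr4:73869273-73869392, + strand): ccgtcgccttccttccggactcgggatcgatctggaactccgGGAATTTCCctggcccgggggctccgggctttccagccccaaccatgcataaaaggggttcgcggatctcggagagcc. The site starts 78 bases before the transcript. Within 250 bases upstream of RefSeq starts the letters occur in 0.413% of 35116 promoters and in 6 of the 9 list members that have one, but not in PPBP, CCL20 or CSF2. The 6 are chemokine genes close together on chromosome 4, so they are not independent cases to set against that share. CSF3 had no promoter to search. CXCL3, which did not reverse, holds the letters too, 78 bases before its start. They were kept after 7 letter patterns had been looked for with the expression values known; an SREBP pattern, TCACNCCAC, was found in 1 of 18 promoters of the cholesterol list and 0 of 12 of the fatty acid list, and in 0.883% of all. Other transcripts of these genes may start elsewhere, and whether NF-kappaB binds any of these sites in these cells was not tested.

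NF-kappaB genes as a group did not reverse with the chemokines. BIRC3 (1.84 and -0.21) and NFKB1 (1.39 and 0.09) rose in SUM149PT CSCs only, while NFKBIA (0.88 and -0.27) and SOD2 (-0.86 and 0.61) stayed under the limit of 1 in both lines. The list of 20 tested subunits, feedback and target genes had medians of 0.08 and -0.18, with 10 positive and 7 negative interactions. Over all genes 32.3% of interactions were positive and 35.3% negative. Among interleukin 1 genes, IL1B fell from a mean of 393 to 275 FPKM in SUM149PT CSCs and rose from 78.4 to 222 in HCC1937 CSCs (interaction -2.01, adjusted p 1.64e-07). IL33 was opposite (-3.15 and 1.63), although its HCC1937 means were only 0.546 and 0.106 FPKM. Of the 9 interleukin 1 family genes tested, 4 passed as lower in SUM149PT CSCs, against 18.2% of all genes. In HCC1937 CSCs 2 passed as higher and 3 as lower, against 2.5% and 5.2%. In both lines 3 fell, where 3.66% of all genes changed in the same direction by different amounts. The family had medians of -0.85 and -0.18.

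Other genes with the same reversal have varied functions. CYP1B1, a cytochrome P450 that oxidises oestrogens and aromatic hydrocarbons, was at 7.01, 6.18 and 7.89 FPKM in SUM149PT CSCs and 138, 124 and 119.9 in non-CSCs, and at 24.6, 26 and 28.2 against 4.18, 5.85 and 5.71 in HCC1937. No library of 1 fraction reached the range of the other in either line (interaction -6.48, standard error 0.19, adjusted p 1.51e-09). The hyaluronan binding protein TNFAIP6 had changes of -2.39 and 1.78, and the decoy receptor IL13RA2 changes of -3.20 and 1.34. DNER, a transmembrane protein with EGF repeats, followed the same order (-3.40 and 1.75). TRAM2, which acts in collagen synthesis at the endoplasmic reticulum, changed by nearly equal amounts in opposite directions (-1.43 and 1.42). TWIST1, a transcription factor of mesenchymal cells, was also opposite (-1.02 and 1.63; interaction -2.64, adjusted p 3.29e-08), while SNAI1 fell in SUM149PT CSCs only (-2.59 and 0.12). Most mesenchymal genes did not follow them. Of 26 tested, 14 passed as higher and 2 as lower in SUM149PT CSCs, against 11.5% and 18.2% of all genes. In HCC1937 CSCs 17 passed as higher, against 2.5% of all genes, and the medians were 1.23 and 1.16.

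The opposite genes that were higher in SUM149PT CSCs include secreted and adhesion proteins. GDF15, a stress cytokine, was at 613, 663 and 585 FPKM in SUM149PT CSCs and 103, 98.6 and 133 in non-CSCs, and at 44, 45.9 and 34.8 against 96.1, 100 and 82.4 in HCC1937. Its fractions were apart in both lines (interaction 3.65, standard error 0.19, adjusted p 6.45e-08). The metalloproteinase inhibitor TIMP3 rose by 1.97 in SUM149PT and had -1.30 in HCC1937, and the matrix protein FBLN1 had 2.56 and -1.06. PVRL4, the adhesion protein nectin 4, was at 36.8, 40.6 and 36.5 against 17.4, 17.8 and 18.1 FPKM in SUM149PT and at 2.18, 2.63 and 2.11 against 19.8, 17.4 and 17 in HCC1937. Its non-CSC levels were alike in the lines, and only the CSC levels parted (interaction 4.01, adjusted p 2.54e-09). The actin bundling protein LCP1 (2.06 and -1.37), PLEKHG3 (1.38 and -1.20) and the ubiquitin ligase NEURL3 (1.09 and -2.38) reversed in the same way. FKBP1A-SDCBP2 did too (1.68 and -2.20), but it is a readthrough of neighbouring genes whose reads may come from either. HSPB8, a small heat shock protein, was opposite as well (2.68 and -1.21), at means of only 0.149 and 0.482 FPKM in HCC1937.

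Most lipid synthesis genes had a negative interaction, though not all fell in SUM149PT CSCs. FASN, the fatty acid synthase, fell from a mean of 482 to 36.6 FPKM in SUM149PT CSCs and was at 61.8 and 64.6 in non-CSCs and CSCs of HCC1937 (-3.71 and 0.07; interaction -3.78, adjusted p 1.41e-09). INSIG1, a sterol sensor whose gene SREBP raises, was at 43.6, 42 and 43.6 FPKM in SUM149PT CSCs and 317, 313 and 294 in non-CSCs, and at 47.6, 40.7 and 43.4 against 21.9, 22.6 and 21 in HCC1937. It was the single opposite gene of the cholesterol list, with fractions apart in both lines and a change in HCC1937 just past the limit of 1 (interaction -3.84, standard error 0.0922, adjusted p 8e-10). The desaturases FADS2 (-4.12 and 0.84) and FADS1 (-2.52 and 0.89) fell in SUM149PT CSCs and rose in HCC1937 CSCs by less than the limit of 1. In sterol synthesis MSMO1 behaved in the same way (-2.33 and 0.46), and IDI1 fell in SUM149PT only (-2.38 and 0.28). ACSS2, which makes acetyl-CoA from acetate, fell in both lines, far more in SUM149PT (-3.42 and -0.40). Of the 23 cholesterol genes tested, 19 had a negative and 2 a positive interaction, against 35.3% and 32.3% over all genes. In SUM149PT CSCs 12 passed as lower and 1 as higher, against 18.2% and 11.5%, and 7 were lower there only, against 5.85%. The medians were -1.08 and 0.24. For the 13 fatty acid genes tested 10 interactions were negative and 3 positive, against the same shares of 35.3% and 32.3%. In SUM149PT CSCs 8 of them passed as lower and 2 as higher, against 18.2% and 11.5%, and the medians were -1.83 and 0.07. In both lists the sign of the SUM149PT median held under every scaling.

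**Figure D3:**
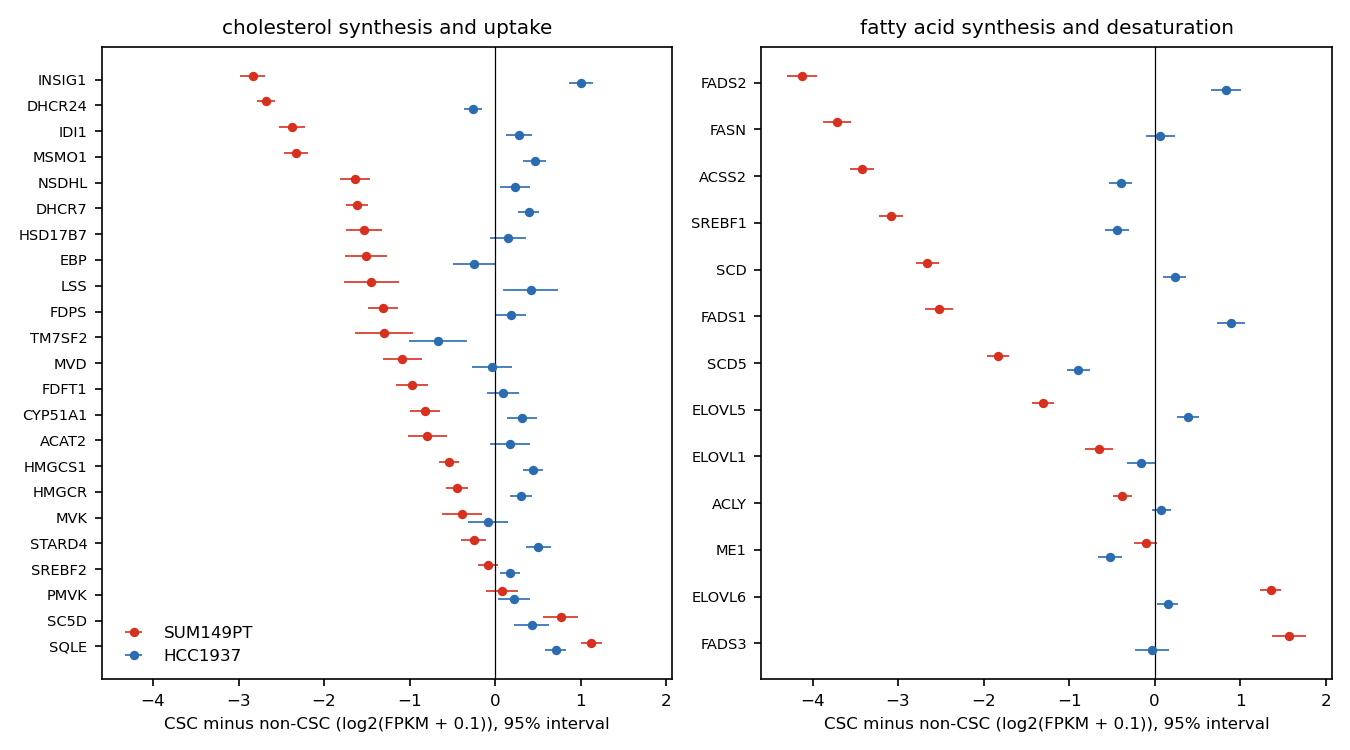
Log2 fold change of each tested gene of the cholesterol and fatty acid lists in both lines. Bars are 95% intervals; most genes lie below 0 in SUM149PT and near 0 in HCC1937.

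Ribosomal, mitosis and DNA replication genes differed in the balance of their interactions, although most passed the limits in neither line. RPL3 rose from a mean of 283 to 715 FPKM in SUM149PT CSCs with 299.7 in HCC1937 non-CSCs and 296 in CSCs (1.34 and -0.02). RPL37 (1.70 and -0.15) and RPS25 (1.36 and 0.04) followed. Of 74 ribosomal protein genes tested, 57 had a positive and 1 a negative interaction, against 32.3% and 35.3% over all genes. In SUM149PT CSCs 20 passed as higher, 17 of them there only, against 11.5% and 4.66% of all genes. The medians were 0.77 and -0.05. The latter turned to 0.07 with TPM scaling, so no direction is given for HCC1937. Reads from ribosomal pseudogenes may enter these values. The mitosis genes TOP2A (1.13 and 0.00), TTK (1.14 and 0.00) and PTTG1 (1.56 and 0.25) rose in SUM149PT CSCs, while AURKA fell (-1.14 and 0.06). Their list of 33 had 22 positive and 6 negative interactions, with 5 genes passing as higher and 1 as lower in SUM149PT CSCs, where 11.5% of all genes were higher and 18.2% lower. Among DNA replication genes MCM2 fell from a mean of 9.62 to 4.08 FPKM in SUM149PT CSCs (means of 55.2 in HCC1937 non-CSCs and 56.8 in CSCs), with E2F1 (-1.71 and 0.10) and FEN1 (-1.07 and 0.18) alongside. Of 37 such genes 20 interactions were negative and 3 positive, 7 passed as lower in SUM149PT CSCs, close to the 18.2% of all genes, and the medians were -0.51 and -0.01, the latter turning to 0.12 with TPM scaling. Proliferation markers thus gave no single direction in SUM149PT, and growth rates were not measured.

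A few genes of the unfolded protein response and ATF4 list rose in SUM149PT CSCs only. ASNS, the asparagine synthetase, was at a mean of 94.3 FPKM in SUM149PT CSCs and 23.6 in non-CSCs, and at 22.1 and 28 in HCC1937 (2.00 and -0.34; interaction 2.34, adjusted p 9.48e-09). TRIB3 (1.27 and -0.32) and SHMT2 (1.17 and -0.04) were placed in the same class, as was the cystine transporter SLC7A11 of the antioxidant list (1.85 and 0.29). The 24 genes tested had 17 positive and 1 negative interaction, against 32.3% and 35.3% over all genes. In SUM149PT CSCs 4 passed as higher and 1 as lower, against 11.5% and 18.2% of all genes, and 3 were higher there only. The median was 0.47 in SUM149PT and -0.02 in HCC1937, where it turned to 0.11 with TPM scaling. GADD45A, a p53 target that also answers to stress, rose in SUM149PT CSCs only (2.03 and -0.03), and BBC3 rose there and fell in HCC1937 (1.31 and -0.45). Of 21 p53 targets tested, 4 passed as higher and 3 as lower in SUM149PT CSCs, against 11.5% and 18.2% of all genes. In HCC1937 CSCs 3 passed as lower, against 5.2% of all genes. The p53 list had medians of 0.23 and -0.35.

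Among SUM149PT-only genes with at least 5 FPKM in the higher fraction of both lines, IRX2 rose most and GDA fell most. IRX2, a homeobox factor, was at 1568, 1483 and 1443 FPKM in SUM149PT CSCs against 152, 158 and 178 in non-CSCs, and at 18.7, 16.3 and 16.2 against 20.8, 19.6 and 18 in HCC1937. The HCC1937 fractions overlap and the SUM149PT fractions are far apart (interaction 3.39, standard error 0.12, adjusted p 4.35e-09). The kinase STK11 was at 18, 18 and 16.7 FPKM in SUM149PT CSCs, 1.99, 2.12 and 2.10 in non-CSCs, 19.5, 16.6 and 16.6 in HCC1937 CSCs and 19.9, 20.6 and 20 in non-CSCs. The SUM149PT non-CSCs thus stood apart from the other 3 groups (interaction 3.22, adjusted p 2.04e-09). PAQR5 (3.10 and 0.25), PDLIM4 (2.92 and 0.02) and TRIO (2.75 and 0.20) rose in SUM149PT CSCs with little change in HCC1937. TPM1 (2.44 and -0.15) and MYH9 (1.93 and 0.07), which encode proteins that bind actin, did the same. Their list of 16 contractile and actin binding genes instead went both ways in SUM149PT CSCs. Of the 16, 5 passed as higher and 4 as lower, against 11.5% and 18.2% of all genes. Their median was 0.14, and 0.52 with genes in the chromosome blocks described below left out. Among the falls, the desmosomal protein PKP1 was at 1.44, 1.19 and 1.25 against 29.6, 31.6 and 30.9 FPKM in SUM149PT and at 5.99, 6.20 and 6.37 against 6.53, 7.34 and 7.85 in HCC1937. In HCC1937 its fractions lay next to each other without overlap, yet the change was small (-0.22; interaction -4.25, adjusted p 1.19e-09). GDA, the guanine deaminase (-4.71 and 0.06), the cochaperone DNAJA4 (-4.35 and -0.16) and RPP25 (-4.23 and 0.09) also fell in SUM149PT CSCs only. Among secreted signals TGFB2 (-3.52 and 0.44) and the Wnt inhibitor SFRP1 (-4.60 and 0.57) fell in SUM149PT and rose slightly in HCC1937.

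The share of SUM149PT-only genes differed between chromosomes. Positions were found for 11833 of the genes tested (96.2%), in windows of 10 Mb with at least 10 genes; the windows and the limit of 0.75 below were chosen after seeing the data. On chromosome 5, 89 of 535 genes were higher in SUM149PT CSCs only (16.6%), against 4.7% over all chromosomes. The window medians of the log2 fold change lay between -1.39 and 2.04 in SUM149PT and between -0.24 and 0.31 in HCC1937; 24 of 283 windows passed 0.75 in absolute size in SUM149PT and 0 in HCC1937, joining into 20 blocks. The block at 0 to 20 Mb of chromosome 5, which holds IRX2 and TRIO, had 43 genes, 25 of them higher in SUM149PT CSCs only, with medians of 1.73 and -0.01. Its neighbour at 30 to 50 Mb had 48 genes, 26 of them in that class, with medians of 1.41 and 0.07. In the other direction, 46 of 143 genes at 0 to 10 Mb of chromosome 17 were lower in SUM149PT CSCs only, with medians of -1.08 and -0.08. Blocks were picked by their SUM149PT median, so they hold such genes by construction: 79 of 556 placed SUM149PT-only higher genes (14.2%) lie in the higher blocks, against 1.64% of all placed genes, and 169 of 702 lower genes (24.1%) in the lower blocks, against 6.18%. Most SUM149PT-only genes lie outside them. FADS1, FADS2, MSMO1, FEN1, RPL37, CD68 and CD99L2 also lie in blocks. With block genes left out, the SUM149PT medians were -0.97 for the cholesterol, -1.83 for the fatty acid, 0.77 for the ribosomal and -0.49 for the DNA replication list, and the HCC1937 median of the fatty acid list turned from 0.07 to -0.16. Whether the fractions of SUM149PT differ in copy number was not tested.

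**Figure D4:**
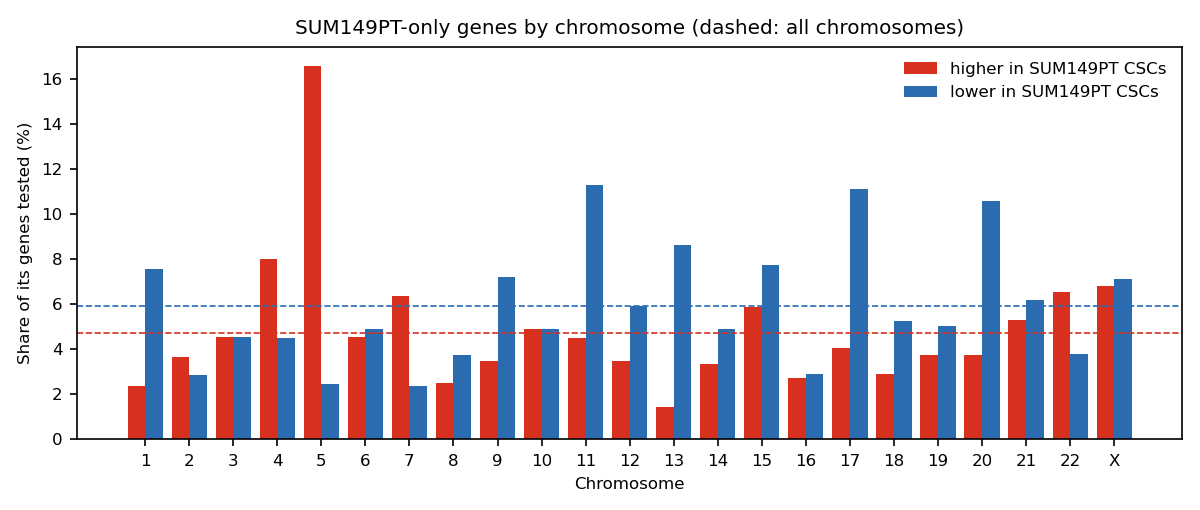
Share of the genes tested on each chromosome that were higher, or lower, in SUM149PT CSCs only. Dashed lines are the shares over all chromosomes.

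Few genes responded in HCC1937 alone. PPP1R14C, an inhibitor of protein phosphatase 1, was at 2.13, 1.91 and 2.09 FPKM in HCC1937 CSCs and 14.3, 13.3 and 12.1 in non-CSCs, and at 14.2, 14.5 and 15.3 against 13.7, 12.7 and 13.3 in SUM149PT. The HCC1937 CSCs thus stood apart from the other 3 groups, which lie close together (interaction 2.78, standard error 0.10, adjusted p 5.86e-09). The protease CTSH (-0.27 and -1.89), the kinase PAK6 (-0.20 and -1.70), the myosin MYO6 (0.05 and -1.47) and the hemidesmosomal integrin ITGB4 (0.04 and -1.41) were lower in HCC1937 CSCs only. QSOX1, an oxidase that forms disulfide bonds in secreted proteins, was at 717, 640.4 and 632 FPKM in HCC1937 CSCs and 208, 260.1 and 245 in non-CSCs, and at 68.6, 73.2 and 71.5 against 73.8, 80 and 76.6 in SUM149PT. Its SUM149PT ranges nearly meet, while those of HCC1937 are far apart (interaction -1.60, adjusted p 9.6e-07). FSTL1 (-0.25 and 1.58), CD99L2 (0.00 and 1.54) and IKBIP (0.26 and 1.43) rose in HCC1937 CSCs only. The matrix genes LOX (-0.42 and 2.06) and FBN1 (-0.75 and 1.87) rose in HCC1937 CSCs and fell by less than 1 in SUM149PT CSCs.

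Interferon stimulated genes had mostly positive interactions but no common direction in SUM149PT. OAS3 was at a mean of 3.89 FPKM in SUM149PT CSCs and 2.15 in non-CSCs, and at 5.17 and 9.07 in HCC1937 (interaction 1.62, adjusted p 1.1e-07). GBP1 (1.35 and -0.50) followed it, PARP12 rose in SUM149PT CSCs only (1.52 and -0.31), and HERC5 fell in SUM149PT (-2.30 and -0.25). Of the 40 interferon stimulated genes tested, 28 interactions were positive and 8 negative, against 32.3% and 35.3% over all genes. The medians were 0.23 and -0.43. In SUM149PT CSCs 6 passed as higher and 5 as lower, against 11.5% and 18.2% of all genes. In HCC1937 CSCs 4 passed as lower, against 5.2% of all genes. The opposite members were OAS2 (1.35 and -1.29) and TRIM22 (1.38 and -1.59), both chosen after their values were seen. The basal factor TP63 rose in SUM149PT CSCs and fell in HCC1937 CSCs (2.24 and -0.81; interaction 3.05, adjusted p 2.49e-08), whereas KRT15 fell more in HCC1937 (-0.78 and -3.04). Epithelial junction genes mostly kept 1 direction. Of 39 tested, 30 fell in both lines by different amounts, with medians of -4.03 and -2.01. Over all genes 3.66% changed in the same direction by different amounts.

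**Figure D5:**
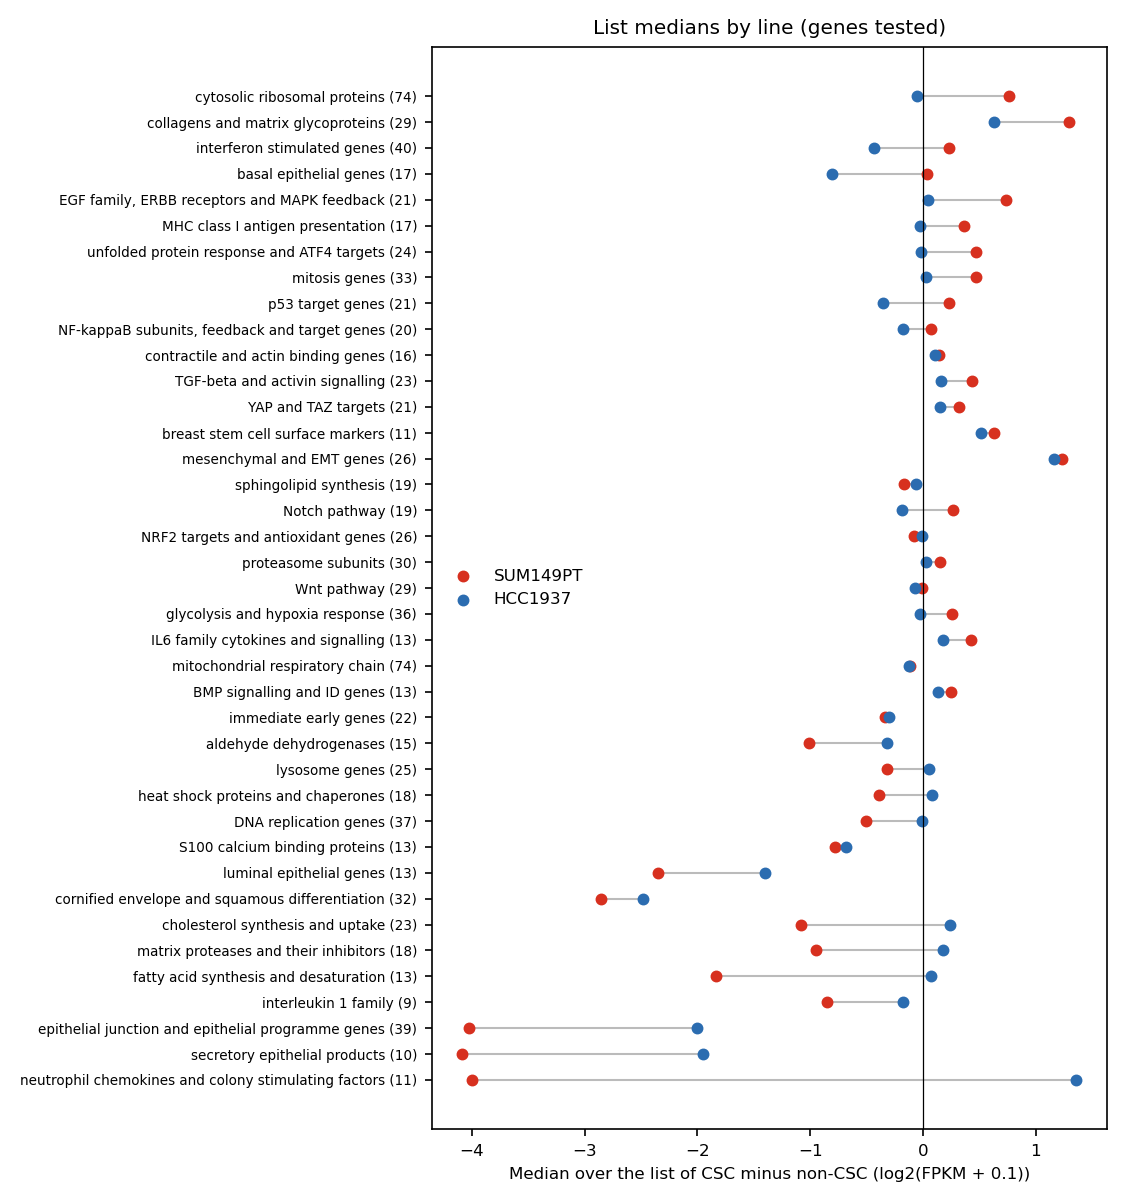
Median log2 fold change in SUM149PT and in HCC1937 of the gene lists with at least 9 genes tested. The number tested is in brackets.

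Markers of other cell types were few and moved with the fractions. Of 12 immune markers only CD14 and CD68 passed the expression minimum, while PTPRC and CD3E stayed below 0.1 FPKM in every library. The 12 together summed to 19.2, 19.3 and 18.2 FPKM in SUM149PT CSCs, 101.0, 95.6 and 103 in non-CSCs, 108, 107 and 94.0 in HCC1937 CSCs, and 71.6, 73.4 and 68.2 in non-CSCs. CD14, which reached the highest level in any library (65.0 FPKM), fell in SUM149PT CSCs (-4.23), and its change of 0.99 in HCC1937 was under the limit (interaction -5.22, adjusted p 2.33e-09), and CD68 fell in SUM149PT only (-1.57 and 0.08). No endothelial marker of 7 passed the minimum. Of 8 fibroblast markers 6 did; the 8 summed to 244, 246.0 and 241 FPKM in SUM149PT CSCs, 71.4, 72.4 and 74.4 in non-CSCs, and at most 16.1 in HCC1937, with COL1A1 the most abundant. Of the 6, 4 passed as higher and 2 as lower in SUM149PT CSCs, against 11.5% and 18.2% of all genes. Their medians were 2.20 in SUM149PT and 0.42 in HCC1937. Against that direction, DCN fell in SUM149PT CSCs (-3.10) and was listed at 0 in all 3 HCC1937 non-CSC libraries. The part of other cells in these results was not tested.

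Each group has 3 libraries, and no read counts were used here, so the counting error of low genes is unknown. Dates of culture and sorting are not given in the labels, so differences between the lines cannot be told apart from differences between sorts.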

How the data were processed

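The deposited table holds FPKM for 33158 gene symbols, made by the authors from oligo(dT) selected mRNA. The submitters' processing notes name Bowtie2 and GRCh38; the quantifier and the annotation are not given in the sources used here. Depth is unknown, so precision rests on the 3 libraries per group. Line, fraction and replicate of each of the 12 libraries were taken from the labels and the column names of the deposited table.

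Log2(FPKM + 0.1) was fitted for genes whose mean reached 1 FPKM, with limma 3.58.1 (lmFit, contrasts.fit and default eBayes, R 4.3.3), with 1 mean per line and fraction and no block; the Benjamini-Hochberg adjustment ran over 12295 genes. The model was tested on simulated data. Named genes are up to 8 opposite genes per direction with the largest smaller change of the lines, and up to 5 genes per direction that respond in only 1 line, with the largest change there. These need fractions that do not overlap in each responding line and at least 5 FPKM in the higher fraction of both lines. Up to 4 genes per list were added, those with the largest called interaction and a mean of at least 5 FPKM in at least 1 group, and the text names some of them. Lists (44) are described by counts and medians, without a set test. Members and lists were chosen with earlier results of these data known. Some genes the rule would name are not reported here. Positions are from GENCODE release 29. Tables and figures were made with Python 3.11.15, pandas 2.3.3, numpy 2.4.6 and matplotlib 3.10.9.

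Alternatives were pseudocounts of 0.01 and 1, minimum means of 0.1 and 5 FPKM and no minimum, scaling by TPM, by quantiles or by the upper quartile, a trended or robust eBayes, a block of replicate numbers, a fit of all 15 libraries, other limits on p, fold change and interval, and leaving out each library. Leaving out the 398 genes listed at 0 in at least 1 library was chosen after seeing the data.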

Additional observations from a re-analysis of the deposited data

Results flagged for a closer look

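By the test of the interaction, SUM149PT and HCC1937 differed in the effect of the CSC fraction in 8313 of 12295 genes. Every named gene listed here was flagged because its own interaction passed the adjusted p limit of 0.05, that is, its change differed between SUM149PT and HCC1937; the cause was not tested for any of them. The interaction was positive in 52 named genes: PVRL4 4.01, HSPB8 3.89, FKBP1A-SDCBP2 3.88, GDF15 3.65, FBLN1 3.62, NEURL3 3.47, LCP1 3.43, IRX2 3.39, TIMP3 3.26, STK11 3.22, TP63 3.05, TRIM22 2.97, PDLIM4 2.91, PAQR5 2.85, PPP1R14C 2.78, OAS2 2.64, TPM1 2.59, PLEKHG3 2.57, TRIO 2.55, SMAD3 2.44, ASNS 2.34, KRT15 2.25, GADD45A 2.06, BIRC3 2.05, CSF2 1.92, MYH9 1.85, RPL37 1.85, GBP1 1.85, NDUFS6 1.84, PARP12 1.83, HBEGF 1.83, BBC3 1.76, CTSH 1.62, OAS3 1.62, EGR1 1.61, TRIB3 1.59, SRXN1 1.57, SLC7A11 1.56, MYO6 1.52, PAK6 1.5, ITGB4 1.44, COL1A1 1.43, RPL3 1.36, RPS25 1.32, PROCR 1.32, PTTG1 1.31, NFKB1 1.30, SHMT2 1.21, NFKBIA 1.15, TTK 1.14, TOP2A 1.13, CD44 0.27. It was negative in 59: CXCL6 -7.40, CYP1B1 -6.48, CXCL1 -6.46, CSF3 -6.02, CD14 -5.22, SFRP1 -5.17, DNER -5.15, FADS2 -4.96, IL33 -4.78, GDA -4.77, IL13RA2 -4.54, RPP25 -4.32, PKP1 -4.25, PPBP -4.23, DNAJA4 -4.19, TNFAIP6 -4.18, CCL20 -4.17, TGFB2 -3.96, INSIG1 -3.84, FASN -3.78, FADS1 -3.41, DCN -3.38, MMP9 -3.34, KRT5 -3.30, ACSS2 -3.02, TRAM2 -2.85, EPGN -2.79, MSMO1 -2.79, DUSP4 -2.78, MMP15 -2.77, SNAI1 -2.71, ID2 -2.69, IDI1 -2.65, TWIST1 -2.64, FBN1 -2.62, LOX -2.48, CDH1 -2.23, EPCAM -2.21, CTSL -2.21, AKR1C1 -2.13, HERC5 -2.06, CXCL3 -2.05, IL1B -2.01, CTSC -1.84, FSTL1 -1.83, E2F1 -1.80, FTH1 -1.70, HSPH1 -1.67, CD68 -1.65, QSOX1 -1.60, CD99L2 -1.54, SDHD -1.49, CD24 -1.48, SOD2 -1.47, MCM2 -1.26, FEN1 -1.25, AURKA -1.20, IKBIP -1.18, FA2H -0.97. PPBP and DCN were at or near 0 in every HCC1937 library, so no change could be measured there and their interactions follow from SUM149PT alone.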

How the results depend on the processing

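The 111 genes with a called interaction that the text names kept its direction and call in 2870 of 2874 comparisons with an alternative; the call was lost 2 times for CD44 and 1 time for FA2H, and FA2H alone reversed, to 0.14 with a pseudocount of 1 (adjusted p 0.364). A minimum mean of 5 FPKM, which leaves fewer genes, gave 5486 interaction calls, 38 opposite genes, 26 HCC1937-only genes, and CSC effects in 1906 genes of SUM149PT and 461 of HCC1937. A minimum of 0.1 FPKM gave 129 opposite genes, and no minimum 128, with 91 HCC1937-only genes and CSC effects in 5791 and 1457. A fold change limit of 2 left 6 opposite, 249 SUM149PT-only and 7 HCC1937-only genes and CSC effects in 1422 and 236. An interval from -1 to 1 gave 2493 SUM149PT-only and 168 HCC1937-only genes. A pseudocount of 1 left 26 opposite genes and 584 CSC effects in HCC1937; the cause was not tested. Quantile scaling shared 55 of the 77 opposite genes; TPM shared 71 and gave 106, 77 of them higher in HCC1937 CSCs. Genes changed in the same direction fell to 271 with a pseudocount of 1. Without 1 library at a time there were 7915 to 8283 interaction calls, 73 to 86 opposite, 1129 to 1313 SUM149PT-only and 40 to 57 HCC1937-only genes, and CSC effects in 3634 to 3709 and 881 to 984. The labels do not say whether fractions with the same replicate number come from 1 sort. Deviations from the group means correlated weakly between such fractions (0.137, 0.0244 and 0.137 in SUM149PT, -0.13, -0.052 and -0.0308 in HCC1937), which cannot decide it. With the replicate numbers as a block there were 8178 interaction calls and 77 opposite, 1275 SUM149PT-only and 49 HCC1937-only genes. Unknown depth limits what can be said of genes near 1 FPKM.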

Other observations

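Matrix proteases and their inhibitors, 18 tested, went both ways in SUM149PT CSCs, with 7 passing as higher and 9 as lower. The shares of all genes were 11.5% and 18.2%. The list had medians of -0.95 in SUM149PT and 0.18 in HCC1937. TIMP3 rose in SUM149PT CSCs (1.97 and -1.30), and MMP9 (-3.32 and 0.02) and MMP15 (-3.06 and -0.29) fell in SUM149PT CSCs only. The summed level of these proteases and inhibitors rose in SUM149PT CSCs, to 925, 966 and 951 FPKM against 727, 722 and 769.5 in non-CSCs. Lysosome genes, 25 tested, had 5 positive and 11 negative interactions, together no larger a share than over all genes (67.6%). Over all genes 32.3% were positive and 35.3% negative. The lysosome medians were -0.32 and 0.05. The cathepsins CTSL (-1.67 and 0.54) and CTSC (-1.59 and 0.25) fell in SUM149PT CSCs, and both lie in shifted blocks. Heat shock proteins and chaperones, 18 tested, had 11 negative and 2 positive interactions, against 35.3% and 32.3% over all genes. Among them HSPH1 was at -1.24 and 0.43. In the EGF family and its feedback, EPGN was opposite (-1.16 and 1.63), at a mean of 0.243 FPKM in SUM149PT non-CSCs and 12.2 in HCC1937 CSCs, while HBEGF rose in SUM149PT and fell in HCC1937 (1.13 and -0.69). DUSP4 fell in SUM149PT CSCs only (-2.45 and 0.33).

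SMAD3 (2.04 and -0.39) and EGR1 (1.18 and -0.43) rose in SUM149PT CSCs, while ID2 (-1.70 and 0.99) fell there and rose in HCC1937 CSCs; ID2 lies in a shifted block. The antioxidant genes gave no common direction: SRXN1 rose in SUM149PT CSCs only (1.63 and 0.06), AKR1C1 rose in HCC1937 (-0.55 and 1.58) and FTH1, in a shifted block, fell in SUM149PT (-1.29 and 0.41). Among 74 respiratory chain genes tested, 14 interactions were positive and 19 negative, lower shares than over all genes (32.3% and 35.3%), with a median of -0.12 in both lines that turned to 0.0041 in HCC1937 with TPM scaling; NDUFS6, in the first block of chromosome 5, rose in SUM149PT CSCs only (1.75 and -0.08), and SDHD fell (-1.53 and -0.03). Collagens and matrix glycoproteins, 29 tested, had medians of 1.30 and 0.63, and cornified envelope genes, 32 tested, -2.86 and -2.48. The stem cell marker PROCR rose in both lines, more in SUM149PT (1.94 and 0.62). None of the 15 mitochondrially encoded transcripts is in the deposited table.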
